A study of Mus musculus with 18 samples.

Results

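The 10 genes described here present antigen on the cell surface through the major histocompatibility complex (MHC): *H2-K1*, *H2-D1*, *H2-T23*, *B2m*, *Tap1* and *Tapbp* of the class I pathway, and *H2-Aa*, *H2-Ab1*, *H2-Eb1* and *Cd74* of the class II pathway. They were chosen by name from a table of 116873 transcripts, and the counts of their 62 transcripts were summed by gene name, which made them 10 of 35960 entries. The table holds panRNA-seq of cell fractions that were isolated one after another from single mouse brains with magnetic beads: microglia with CD11b beads, then astrocytes with ACSA-2 beads, and then the unlabelled neurons that remained once cells bearing non-neuronal surface markers and CD31 had been removed. All mice were 10 months old, untreated and on the C57BL/6 background. Per the study's methods both sexes were present in each genotype, and sex was not taken into account in the comparisons. Wild-type (WT) mice carried the normal *Atxn2* gene, and their *Atxn2*-CAG100-KIN (KIN) littermates were homozygous for an expanded CAG repeat in *Atxn2*, a model of spinocerebellar ataxia type 2 in which the mutant allele is present in all cells. Each fraction and genotype had 3 libraries, 18 in all. A fraction is a bulk sample, so that a change in the number of cells of a type and a change in the RNA of each cell cannot be told apart.

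Astrocyte libraries held 2118317 to 2829969 counts, microglia libraries 2334633 to 3296398 and neuronal libraries 761481 to 2017932. In the neuronal fraction the WT libraries (up to 1017972 counts) were all shallower than the KIN libraries (from 1473194 counts), so that depth and genotype cannot be told apart there. Levels are given as CPM, a count relative to the library total, with the total scaled by the TMM method of edgeR. A level of 3 counts, taken as the floor, corresponds to 0.910 to 3.94 CPM before that scaling, and covers counting error only. Levels of different genes are not compared. KIN and WT were compared with the quasi-likelihood test of edgeR over all genes with at least 5 counts in at least 2 libraries of the comparison, and calling required both an adjusted *p* (Benjamini-Hochberg) no higher than 0.05 and a log2 fold change (log2FC) of 1 or more in either direction.

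Class I molecules consist of a heavy chain, here H2-K1 and H2-D1 and the non-classical H2-T23, bound to β2-microglobulin, the product of *B2m*. Peptides made by the proteasome enter the endoplasmic reticulum through a transporter of which Tap1 is a subunit, and tapasin, the product of *Tapbp*, holds the empty heavy chain at that transporter until a peptide fits. Nearly all nucleated cells can make class I and show it to CD8+ T cells. Class II molecules pair an alpha and a beta chain, H2-Aa with H2-Ab1, and are made mainly by professional antigen-presenting cells for CD4+ T cells. Their precursors are escorted by the invariant chain Cd74, which cathepsins degrade in endosomes. H2-Eb1 is a second beta chain whose alpha partner is not expressed in C57BL/6 mice. Microglia hold both pathways at a low level in the healthy brain, and interferon is a known inducer of both.

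The class I heavy chain genes and the class II alpha and beta chain genes of the set lie in the MHC on chromosome 17 of GRCm39 (mm39), *H2-K1* at 34214987 to 34219321 on the minus strand and *H2-D1* at 35481691 to 35486475 on the plus strand. *B2m* and *Cd74* lie outside it, *B2m* on chromosome 2 at 121977957 to 121983594. Transcription of the class I heavy chains and *B2m* is known to pass through κB-like, interferon-response and Y box elements close to the start site, so the stretches upstream of the genes that the results turn on are shown. They are the 250 bases before the start site in RefSeq windows of GRCm38.p6, a different build from that of the counts, and capitals mark matches on either strand to GAAANNGAA (the core of the interferon-stimulated response element), GGGGATTCC (κB-like) or CTGATTGG (Y box). The matches shown do not overlap each other. The windows are chr2:122147437-122147686, plus strand for *B2m*, chr17:35262844-35263093, plus strand for *H2-D1*, chr17:34000348-34000597, minus strand for *H2-K1* (the first of 2 start sites) and chr17:34287824-34288073, minus strand for *H2-Aa*.
B2m: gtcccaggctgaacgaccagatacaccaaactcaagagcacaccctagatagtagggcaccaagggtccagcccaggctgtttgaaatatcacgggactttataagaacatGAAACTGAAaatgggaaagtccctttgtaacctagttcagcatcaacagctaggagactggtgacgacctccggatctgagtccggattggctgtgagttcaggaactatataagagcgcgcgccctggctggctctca
H2-D1: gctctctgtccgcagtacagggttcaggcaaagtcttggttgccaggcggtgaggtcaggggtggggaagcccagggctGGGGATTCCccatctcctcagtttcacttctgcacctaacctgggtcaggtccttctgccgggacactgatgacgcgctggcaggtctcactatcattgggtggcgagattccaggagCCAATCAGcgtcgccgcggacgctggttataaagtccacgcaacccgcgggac
H2-K1: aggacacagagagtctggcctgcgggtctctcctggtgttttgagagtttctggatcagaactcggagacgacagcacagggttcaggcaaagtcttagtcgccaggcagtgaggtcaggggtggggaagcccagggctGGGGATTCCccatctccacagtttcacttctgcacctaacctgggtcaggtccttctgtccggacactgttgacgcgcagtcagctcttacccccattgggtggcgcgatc
H2-Aa: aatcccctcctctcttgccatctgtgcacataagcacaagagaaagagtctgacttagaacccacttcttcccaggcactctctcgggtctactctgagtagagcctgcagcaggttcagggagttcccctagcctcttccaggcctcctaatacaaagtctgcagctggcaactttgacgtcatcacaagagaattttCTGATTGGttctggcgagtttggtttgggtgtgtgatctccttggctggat

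*B2m* held GAAACTGAA at 139 to 131 bases before its start. The *H2-D1* and *H2-K1* stretches were alike at 166 of 190 aligned bases (87.4%), and both held the κB-like letters, at 171 to 163 and at 111 to 103 bases before the start. *H2-D1* also held the Y box letters, as the reverse complement CCAATCAG, at 53 to 46 bases, and *H2-Aa* held CTGATTGG at 51 to 44 bases. Of the 8 members searched, 2 had the interferon letters (*B2m*, *H2-T23*), 2 the κB-like letters (*H2-K1*, *H2-D1*) and 5 the Y box letters (*H2-D1*, *H2-T23*, *Tap1*, *H2-Aa*, *H2-Eb1*). Over all 32851 RefSeq windows the shares were 7.13%, 0.213% and 3.83%. A match is a description of the letters and not a binding site, and no match says only that these letters are not in this window.

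The first question was where in these fractions the genes were expressed. All 10 were higher in microglia than in astrocytes, and the class II genes were close to absent from the astrocyte fraction. Over the 6 libraries of a fraction, *B2m* was at 109 ± 49.6 CPM (SD, n = 6) in microglia, 16.8 ± 7.83 in neurons and 8.84 ± 5.23 in astrocytes. *H2-K1* was at 78.8 ± 28.4 CPM in microglia, 36.9 ± 9.57 in neurons and 10.8 ± 4.16 in astrocytes, and here no neuronal library fell as low as the highest astrocyte library. *H2-D1* followed the same order, with 20.0 to 78.7 CPM in microglia, 8.09 to 22.9 in neurons and 4.55 to 13.8 in astrocytes. *Tapbp* ranged from 26.4 to 51.3 CPM in microglia, while neurons (11.1 ± 2.38) and astrocytes (10.1 ± 4.57) did not differ beyond their spread. *H2-T23* overlapped between all fractions, with 15.3 ± 5.59 CPM in microglia, 11.3 ± 3.57 in neurons and 7.45 ± 1.53 in astrocytes, and *Tap1* had 5.40 ± 2.28 CPM in microglia, 3.06 ± 1.01 in neurons and 1.36 ± 0.834 in astrocytes.

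Class II genes were measured mainly in the microglia fraction. *Cd74* was at 24.8 ± 8.00 CPM (SD, n = 6) in microglia, 4.83 ± 3.87 in neurons and 0.517 ± 0.807 in astrocytes. *H2-Ab1* was at 22.9 ± 9.87, 4.64 ± 2.74 and 0.240 ± 0.202 CPM. *H2-Aa* (10.6 ± 3.87 CPM in microglia) and *H2-Eb1* (10.0 ± 1.83 CPM) had the same order of fractions. In the astrocyte libraries no count of *H2-Aa*, *H2-Ab1* or *H2-Eb1* exceeded 3 and no count of *Cd74* exceeded 4, and in the neuronal libraries the counts of these 4 genes ran from 0 to 12. Against an astrocyte level of at least 3 counts in each library, microglia were at least 21.2-fold higher in *Cd74*, 21.1-fold in *H2-Ab1*, 9.78-fold in *H2-Aa* and 9.21-fold in *H2-Eb1*.

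**Figure D1:**
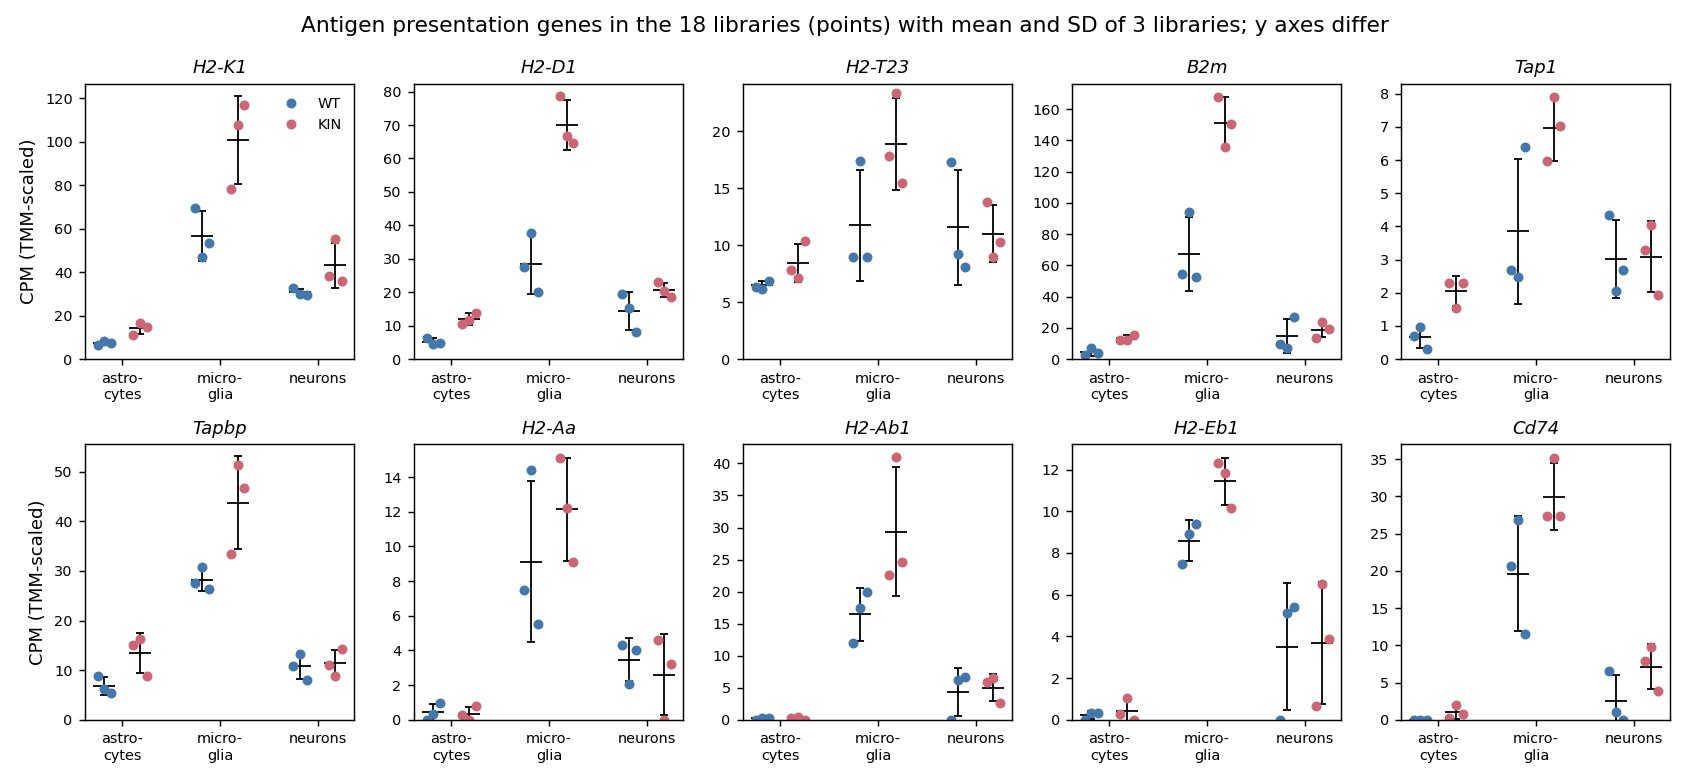
CPM of each of the 10 genes (y axis, TMM-scaled, one scale per gene) in the 3 fractions (x axis), with blue points for WT and red points for KIN libraries and the mean with SD of 3 libraries as black bars. Microglia were highest for each gene, and the red points of *B2m* and *H2-D1* lie above the blue ones in astrocytes and in microglia.

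In the test over the 18 libraries, with genotype as a covariate, all 10 genes were called higher in microglia than in astrocytes, where 32.4% of all tested genes were called in either direction. Among the class I genes the log2FC ran from 1.01 (SE 0.23) for *H2-T23*, whose libraries overlapped, to 3.66 (SE 0.25) for *B2m*. The *H2-T23* value sat at the fold limit, and the call was lost with DESeq2 (0.99), its size factors (0.98), a mean of at least 10 counts (0.91) and the replicate block (0.99), and without WT replicates 2 (0.90) or KIN replicates 1 (0.96) or 2 (0.84), with adjusted *p* values up to 0.00677. Against neurons, 8 of the 10 were called higher in microglia (26.7% of all tested genes called), with *B2m* at 2.70 (SE 0.26), *Cd74* at 2.34 (SE 0.32) and *H2-Ab1* at 2.34 (SE 0.31). *H2-K1* was called at a log2FC of 1.08 (SE 0.21) and fell below the fold with a mean of at least 10 counts (0.82) and without KIN replicate 3 (0.96). *H2-T23* (log2FC 0.43, adjusted *p* = 0.201) and *Tap1* (0.89, adjusted *p* = 0.0745) did not pass. Between astrocytes and neurons, 6 genes were called lower in astrocytes (29.1% of all tested genes called): *H2-K1* (log2FC -1.81, SE 0.23), *H2-D1* (-1.07, SE 0.26) and the 4 class II genes. The *H2-D1* call was lost with TMM without the 10 most abundant genes (-0.997), without the filter (-0.97), with the most abundant transcript (-0.74) and without WT replicates 1 (-0.95) or 2 (-0.95). *B2m* passed the adjusted *p* alone (0.00669, and 0.119 without WT replicate 3) at a log2FC of -0.96. Fewer calls were left with the most abundant transcript of each gene in place of the sum, where 3 genes were called, *H2-K1*, *H2-Ab1* and *Cd74*.

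The fractions were checked with marker genes of other cells that can present antigen. The microglia fraction carried its own 8 markers, among them *Tmem119*, *P2ry12* and *Aif1*, at a summed level of 488 to 855 CPM per library, against 6.63 to 16.6 in astrocytes and 11.0 to 17.8 in neurons. Astrocyte markers summed to 192 CPM or more in the astrocyte libraries and to 16.6 CPM or less in the others, and the astrocyte fraction also held oligodendrocyte markers at 295 to 468 CPM. Neuronal markers summed to 95.7 to 162 CPM in neurons and 30.7 to 88.7 CPM in astrocytes. The neuronal fraction stood apart in another way. Its 7 T and NK cell markers summed to 29.7 to 42.1 CPM in WT and 34.7 to 40.6 CPM in KIN, whereas no astrocyte library exceeded 4.24 CPM and no microglia library 5.38 CPM. *Trac*, *Cd4* and *Cd3g* had 0 counts in some neuronal libraries. *Cd3e*, a chain of the T cell receptor complex, had 4 to 18 counts in each neuronal library and 0 to 3 in each glial library. *H2-Q7*, a non-classical class I heavy chain, was also highest there, with 24.3 to 59.2 CPM against 8.06 to 29.5 in microglia and 0.512 to 5.76 in astrocytes. The part of these cells in the neuronal class I and class II levels was not tested. B cell markers summed to 14.0 to 21.3 CPM and monocyte and neutrophil markers to 27.4 to 104 CPM in the microglia libraries. Monocytes and neutrophils carry CD11b as well. Their part in the class II level of microglia was not tested either.

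**Figure D2:**
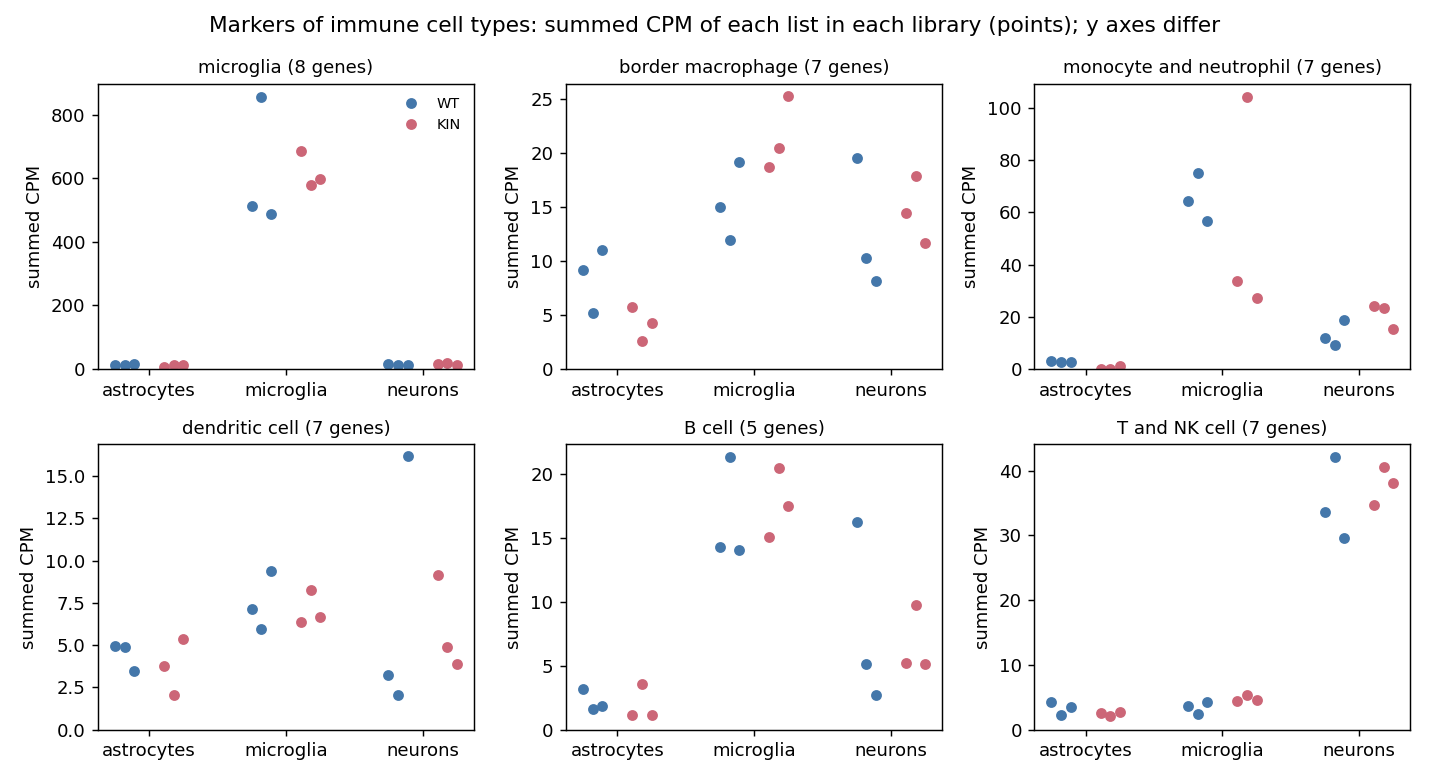
Summed CPM of 6 lists of immune cell markers (y axis, one scale per list) in each library of the 3 fractions (x axis), blue for WT and red for KIN. The microglia markers lie at 488 CPM or more in the microglia libraries and at 17.8 CPM or less in the others, and the T and NK cell markers reach 29.7 CPM or more in all 6 neuronal libraries and 5.38 CPM or less in the others.

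The main question of the design was what the *Atxn2* expansion changes. In the microglia fraction *H2-D1* and *B2m* rose in KIN, and all 10 genes had a positive log2FC. *H2-D1*, one of the classical heavy chains, was at 27.5, 37.7 and 20.0 CPM in the WT libraries and at 78.7, 66.8 and 64.5 CPM in the KIN libraries. *B2m*, the light chain shared by all class I molecules, was at 54.4, 94.3 and 52.8 CPM in WT and at 168, 136 and 150.5 CPM in KIN. For both genes the lowest KIN library lay well above the highest WT library. The log2FC was 1.31 (SE 0.25, 2.47-fold) for *H2-D1* with an adjusted *p* of 0.00601, and 1.18 (SE 0.25, 2.26-fold) for *B2m* with an adjusted *p* of 0.0133. These 2 were the only members called, where 1.52% of the 10831 genes tested in microglia were called, 80 higher and 85 lower. DESeq2 called both members too, and over all genes 41 higher and 7 lower.

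The other class I genes did not pass the test in microglia. *H2-K1* was at 69.6, 47.1 and 53.2 CPM in WT and at 78.3, 108 and 117 CPM in KIN, with no overlap between the genotypes, a log2FC of 0.83 (SE 0.24) and an adjusted *p* of 0.0732. *Tapbp* was at 27.5, 30.8 and 26.4 CPM in WT and at 33.4, 51.3 and 46.7 CPM in KIN (log2FC 0.64, SE 0.23, adjusted *p* = 0.210). *H2-T23* and *Tap1* overlapped between the genotypes, with WT replicate 2 of *H2-T23* (17.4 CPM) and WT replicate 3 of *Tap1* (6.39 CPM) among the KIN values. Their log2FC was 0.72 (SE 0.28) and 0.88 (SE 0.37), with adjusted *p* values of 0.253 and 0.298, and the most abundant transcript of *Tap1* was at 0.24.

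None of the 4 class II genes was called in microglia. *H2-Ab1*, the beta chain, was at 11.9, 17.4 and 20.0 CPM in WT and at 22.6, 40.9 and 24.6 CPM in KIN (log2FC 0.86, SE 0.27, adjusted *p* = 0.116). *Cd74* was at 20.6, 26.8 and 11.5 CPM in WT and at 27.4, 35.2 and 27.4 CPM in KIN (log2FC 0.62, SE 0.27, adjusted *p* = 0.319). *H2-Eb1* was at 7.47, 8.93 and 9.37 CPM in WT and at 12.3, 11.8 and 10.2 CPM in KIN (log2FC 0.43, SE 0.27, adjusted *p* = 0.592), and its most abundant transcript had a log2FC of 1.25 (adjusted *p* = 0.240). These 3 genes did not overlap between the genotypes. *H2-Aa* overlapped, with 7.47, 14.4 and 5.53 CPM in WT and 15.1, 12.2 and 9.12 CPM in KIN (log2FC 0.45, SE 0.31, adjusted *p* = 0.658). In all, 7 of the 10 genes had every KIN library above every WT library, which was so for 8.46% of all genes tested in microglia. The adjusted *p* alone called the same 2 members and 1.62% of all tested genes.

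The call on *B2m* rested on all but 1 of the microglia libraries. It was lost without WT replicate 1 (adjusted *p* = 0.127), WT replicate 3 (0.143), KIN replicate 1 (0.0964), KIN replicate 2 (0.0706) or KIN replicate 3 (0.0746), at a log2FC of 1.00 to 1.26. Without WT replicate 2, which had the highest *B2m* level of the WT libraries, it was 1.49 with an adjusted *p* of 1.31e-05. *H2-D1* lost its call without WT replicate 3 (adjusted *p* = 0.0853) or KIN replicate 1 (0.0539) and kept it in the other 4 fits. That WT replicate 2 also had the highest scaled level of microglia markers, at 855 CPM against 488 and 514 in the other WT libraries and 579 to 686 in KIN. Its TMM factor was 0.612, the lowest of the 18 libraries. The rank of its marker and *B2m* levels among the WT libraries depends on that scaling. As a share of the summed markers of the same library, a scale chosen after the values were seen, *B2m* was at 10.6, 11.0 and 10.8% in WT and at 24.5, 23.4 and 25.1% in KIN, and *H2-D1* at 5.35, 4.41 and 4.10% in WT and at 11.5, 11.5 and 10.8% in KIN. For these 2 genes the WT libraries lay closer together on this scale than in CPM. For *H2-K1*, at 13.5, 5.51 and 10.9% in WT and 11.4, 18.6 and 19.5% in KIN, they lay further apart and overlapped KIN replicate 1. *Tapbp*, *H2-Ab1*, *H2-Eb1* and *Cd74* overlapped on this scale too, while *H2-T23* no longer did, so that 3 of the 10 genes had every KIN library above every WT library in place of 7. The share of all tested genes without overlap was not formed on this scale, so the count has nothing to be read against. None of the 8 microglia markers was called in edgeR, their median log2FC being 0.02.

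Markers of other cells were followed in the microglia fraction too. Dendritic cell markers summed to 5.95 to 9.37 CPM in WT and 6.36 to 8.26 in KIN, with *Clec9a* at 0 in all 6 libraries, and B cell markers to 14.0 to 21.3 and 15.1 to 20.5 CPM. Border macrophage markers summed to 11.9 to 19.2 CPM in WT and 18.7 to 25.3 in KIN, and *Mrc1*, the mannose receptor of these cells, had 6, 4 and 7 counts in WT and 12, 20 and 18 counts in KIN (log2FC 1.45, adjusted *p* = 0.0584). *Pf4*, another of these markers, had 2, 4 and 0 counts in WT and 5, 6 and 8 in KIN (log2FC 1.51, adjusted *p* = 0.420). The border macrophage markers *Cd163* (log2FC 0.56), *F13a1* (0.31) and *Ms4a7* (-0.19) overlapped between the genotypes and were not called. *Lyve1* and *Cbr2* of the same list were too low to be tested. T and NK cell markers summed to 2.48 to 4.26 CPM in WT and 4.37 to 5.38 in KIN, so that *Mrc1* and this sum did not overlap and were higher in KIN, as *B2m* and *H2-D1* were. *Pf4* was tested only through its KIN libraries. Monocyte and neutrophil markers summed to 56.6 to 74.9 CPM in WT and 27.4 to 104 in KIN. Neuronal markers were lower in KIN, at 12.9 to 40.0 CPM in WT and 5.38 to 7.95 in KIN, and 2 of 6 were called, beside 1.52% of all tested genes. Both, *Snap25* and *Syt1*, were tested only through their WT libraries. Oligodendrocyte markers summed to 20.9 to 27.5 CPM in WT and 13.7 to 14.7 in KIN, with *Mbp* at a log2FC of -1.11 (adjusted *p* = 0.0545), and pericyte markers to 2.98 to 3.88 and 1.44 to 1.99 CPM. Endothelial markers summed to 39.6 to 55.6 CPM in WT and 48.4 to 52.0 in KIN. Of these, *Cldn5* was called lower (log2FC -2.12, adjusted *p* = 0.0133), tested only through its WT libraries, and *Pecam1* had every KIN library above every WT library (log2FC 0.43, adjusted *p* = 0.489). The part of these cells in the class I increase was not tested.

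**Figure D3:**
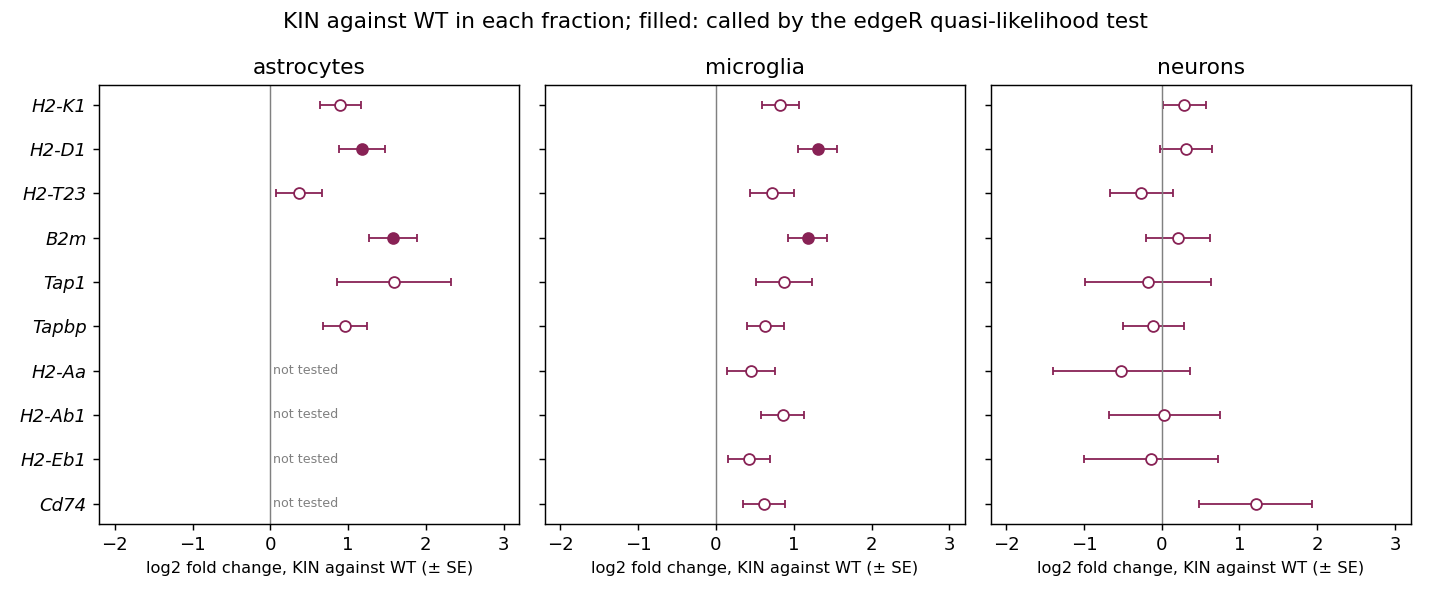
Log2FC of KIN against WT (x axis, point with SE) for the 10 genes (y axis) in each fraction, filled where called. *B2m* and *H2-D1* are the filled points in astrocytes and in microglia, no point is filled in neurons, and the 4 class II genes were too low to be tested in astrocytes.

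In the astrocyte fraction the same 2 genes, *B2m* and *H2-D1*, rose. *B2m* was at 2.47, 6.83 and 3.76 CPM in WT and at 12.4, 12.3 and 15.3 CPM in KIN, from 7, 21 and 12 and from 43, 24 and 40 counts. *H2-D1* was at 6.36, 4.55 and 4.70 CPM in WT and at 10.4, 11.8 and 13.8 CPM in KIN. Neither gene overlapped between the genotypes. The log2FC of *B2m* was 1.58 (SE 0.31, 2.99-fold) with an adjusted *p* of 0.00026, and that of *H2-D1* 1.18 (SE 0.29, 2.26-fold) with an adjusted *p* of 0.00401. They were called where 8.84% of the 11751 genes tested in astrocytes were called, 285 higher and 754 lower. Both kept their call whichever of the 6 libraries was left out, with adjusted *p* values up to 0.00956 for *B2m* and 0.0423 for *H2-D1*, but *H2-D1* lost it in DESeq2 (log2FC 1.18, adjusted *p* = 0.0516) and as its most abundant transcript (1.09, adjusted *p* = 0.0552).

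*H2-K1* and *Tapbp* passed the adjusted *p* in astrocytes but not the fold, as members of the 11.9% of tested genes that passed it. *H2-K1* was at 6.36, 8.45 and 7.21 CPM in WT and at 11.2, 16.4 and 15.0 CPM in KIN (log2FC 0.90, SE 0.27, adjusted *p* = 0.0188). *Tapbp* was at 8.83, 6.18 and 5.33 CPM in WT and at 15.0, 16.4 and 8.82 CPM in KIN, where KIN replicate 3 was level with WT replicate 1 (log2FC 0.97, SE 0.28, adjusted *p* = 0.0169). *H2-K1* no longer passed in DESeq2 (adjusted *p* = 0.121), with all libraries in 1 fit (0.0536) and without WT replicates 1 or 3 or KIN replicates 2 or 3 (up to 0.0959), nor as its most abundant transcript (log2FC 1.53, adjusted *p* = 0.0838). *Tapbp* no longer passed in DESeq2 (adjusted *p* = 0.133), as its most abundant transcript (0.160) and without WT replicate 3 or KIN replicates 1 or 2 (up to 0.131). *Tap1* had 2, 3 and 1 counts in WT and 8, 3 and 6 in KIN, so that it passed the filter through its KIN libraries alone, and its log2FC of 1.59 (SE 0.73) had an adjusted *p* of 0.156. *H2-T23* was at 6.36, 6.18 and 6.90 CPM in WT and at 7.78, 7.16 and 10.4 CPM in KIN (log2FC 0.37, SE 0.29, adjusted *p* = 0.478). *B2m*, *H2-D1*, *H2-K1* and *H2-T23* had every KIN library above every WT library, as 13.8% of all genes tested did. *Tap1* did so too, but had to be high in KIN to be tested.

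Class II genes were too low to be tested in the fit of the astrocyte libraries. *Cd74* had no count in any WT library, where 3 counts correspond to at most 1.42 CPM, and 1, 4 and 2 counts in the KIN libraries. *H2-Aa* had 0, 1 and 3 counts in WT and 1, 0 and 2 in KIN, *H2-Ab1* 0, 1 and 1 in WT and 1, 1 and 0 in KIN, and *H2-Eb1* 0, 1 and 1 in WT and 1, 2 and 0 in KIN. All were under the filter. When all 18 libraries were fitted together, *Cd74* passed the filter and was called in astrocytes (adjusted *p* = 0.0478). It was not called without the filter (adjusted *p* = 0.0881), and no fold is given because the WT counts were 0 and the KIN counts at most 4. For the other 3 class II genes a difference between the genotypes was not detectable at this depth.

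In the astrocyte fraction the microglia markers were low, and none of the 3 that could be tested was called. *Cx3cr1* came nearest (log2FC -1.27, adjusted *p* = 0.0509), with every KIN library below every WT library, as in 14.1% of all genes tested. *Csf1r* (-0.03) and *Sall1* (-0.46) overlapped between the genotypes. The 8 markers summed to 12.0 to 16.6 CPM in WT and to 6.63 to 11.9 CPM in KIN, with *P2ry12* and *Aif1* at 0 counts in every WT library and *Tmem119* and *Fcrls* at 0 in every KIN library. The T and NK cell markers summed to 2.28 to 4.24 CPM in WT and 2.05 to 2.68 in KIN. Oligodendrocyte markers summed to 295 to 464 CPM in WT and 458 to 468 in KIN, with 1 of 6 called higher. Astrocyte markers summed to 292 to 425 and 192 to 205 CPM, with 2 of 6 called lower, and neuronal markers to 34.8 to 88.7 and 30.7 to 49.5 CPM, with 4 of 6 called lower (*Gad1* tested only through its WT libraries), beside 8.84% of all tested genes called. *Gfap* (log2FC 0.80, adjusted *p* = 0.0369) and *Tubb3* (0.92, adjusted *p* = 0.0217) of these lists passed the adjusted *p* alone in the other direction. Border macrophage markers summed to 5.20 to 11.0 CPM in WT and 2.56 to 5.76 in KIN and monocyte and neutrophil markers to 2.60 to 3.18 and 0 to 1.15 CPM, with *Ms4a7* (log2FC -1.58, adjusted *p* = 0.0165) and *Ccr2* (-2.57, adjusted *p* = 0.0301) called lower, both tested only through their WT libraries. The part of these shifts in the class I increase was not tested.

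**Figure D4:**
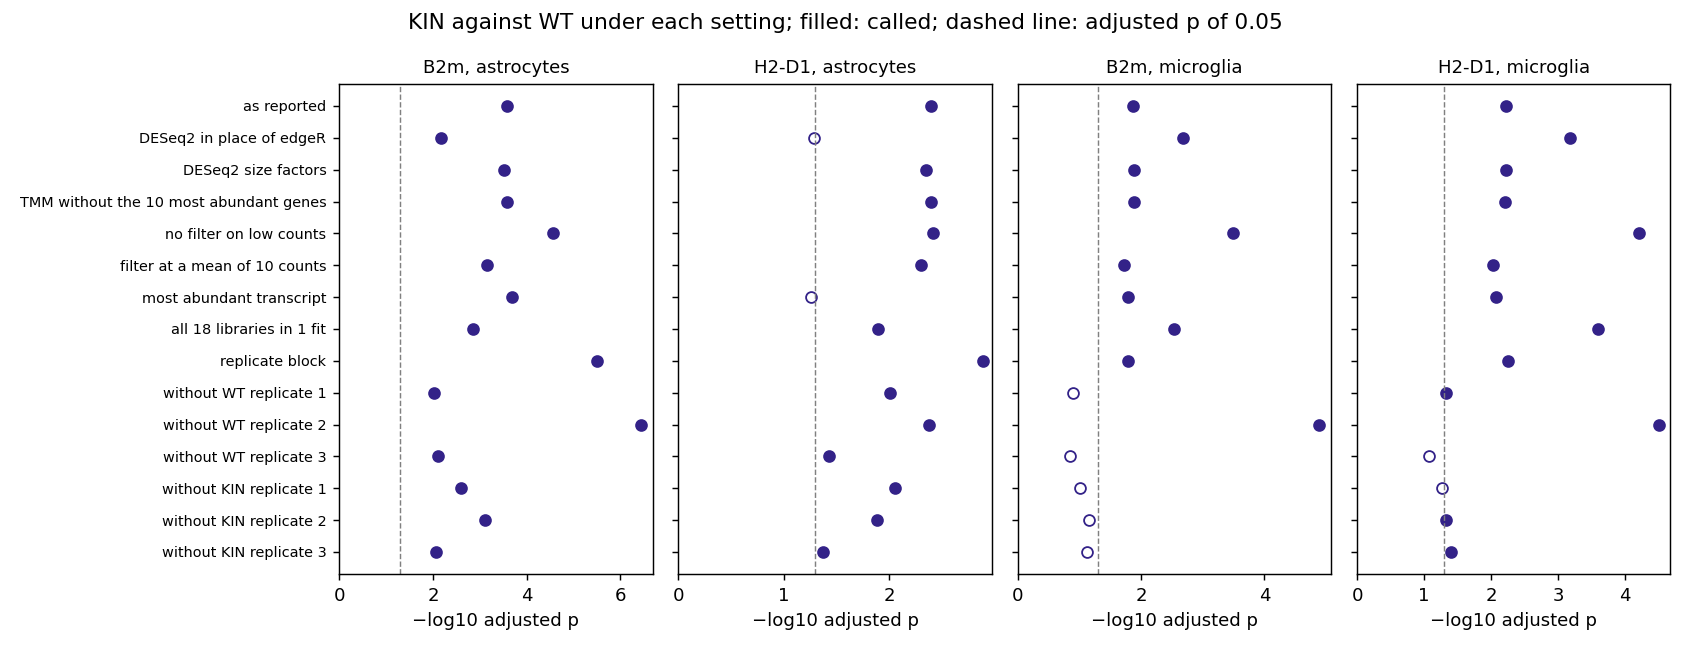
Adjusted *p* of *B2m* and *H2-D1* for KIN against WT in astrocytes and microglia, as -log10 (x axis), under each setting of the processing (y axis), filled where the gene was called and with a dashed line at 0.05. In microglia the open points are fits that leave out 1 library, while in astrocytes *B2m* is filled throughout and *H2-D1* is open with DESeq2 and with its most abundant transcript.

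No antigen presentation gene was called in the neuronal fraction, where 0.0739% of the 6765 tested genes were called by edgeR, 5 genes that were all lower in KIN. None of the 10 had an unadjusted *p* under 0.05, and DESeq2 called none. *H2-K1* was measured at 32.5, 29.7 and 29.7 CPM in WT and 38.0, 55.2 and 36.1 CPM in KIN (log2FC 0.29, SE 0.28, adjusted *p* = 0.968). It was the one member without overlap between the genotypes, which held for 11.5% of the tested genes. *H2-D1* was at 19.5, 15.4 and 8.09 CPM in WT and at 22.9, 20.3 and 18.7 CPM in KIN (log2FC 0.31, SE 0.34). *B2m* was at 9.76, 7.18 and 27.0 CPM in WT and at 13.8, 23.5 and 19.3 CPM in KIN (log2FC 0.21, SE 0.41), so that WT replicate 3 was above all KIN libraries. Neuronal WT replicate 2 differed from the other 5 libraries in its oligodendrocyte markers (241 CPM against 9.76 to 34.1, mostly *Mbp*), and without it none of the 10 genes was called either.

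Only through their KIN libraries did *Cd74*, *H2-Aa*, *H2-Eb1* and *Tap1* pass the filter in neurons. *Cd74* had a log2FC of 1.21 (SE 0.72), from 6, 1 and 0 counts in WT and 12, 12 and 6 counts in KIN, and its adjusted *p* was 0.968. The log2FC was 3.21 without WT replicate 1, which held 6 of the 7 WT counts, and 0.76 to 1.52 without any other library. *H2-Aa* had 4, 2 and 3 counts in WT and 7, 0 and 5 in KIN, *H2-Ab1* 0, 6 and 5 in WT and 9, 8 and 4 in KIN, and *H2-Eb1* 0, 5 and 4 in WT and 1, 8 and 6 in KIN. With so few counts, a class II difference between the genotypes was not detectable in this fraction. *H2-T23* (log2FC -0.26, SE 0.40), *Tapbp* (-0.11, SE 0.39) and *Tap1* (-0.18, SE 0.81) had negative values within 1 SE of 0. At these counts the SE was 0.28 to 0.88 on the log2 scale.

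In the compound comparison, which fitted the 18 libraries with a term for the fraction, *B2m* (log2FC 1.11, SE 0.21, adjusted *p* = 0.000384) and *H2-D1* (1.07, SE 0.19, adjusted *p* = 0.000121) were called again, where 2.07% of the 13552 tested genes were called. These libraries include those of the fractions above and do not stand as separate evidence. The fractions were taken one after another from single brains, so the 9 libraries of a genotype share animals, and the *p* values of every fit that joins fractions treat them as independent. *B2m* fell below the fold without the WT libraries of replicate 1 (0.87, adjusted *p* = 0.0434) and *H2-D1* without those of WT replicate 3 (0.86, adjusted *p* = 0.0139). *H2-K1* (0.75, adjusted *p* = 0.00521) and *Tapbp* (0.63, adjusted *p* = 0.0439) passed the adjusted *p* alone, which *H2-K1* lost without WT replicate 3 (0.0545) or KIN replicate 2 (0.0764). *Tapbp* lost it with DESeq2 size factors (0.0717), without the filter (0.0860), as its most abundant transcript, with the replicate block (0.0538) and without WT replicates 1 or 3 or KIN replicates 1, 2 or 3 (up to 0.304). The most abundant transcript of *H2-Eb1* was at 1.20 in place of 0.36. Whether the KIN effect differed between the glial fractions was tested as an interaction on 12 libraries (microglia minus astrocytes), which called none of the 10 genes (1.14% of all tested genes called, none of the 10 by DESeq2 either). It was 0.13 (SE 0.42) for *H2-D1* and -0.40 (SE 0.41) for *B2m*. Only *Cd74*, which had no count in WT astrocytes, had an unadjusted *p* under 0.05 (0.0106, adjusted *p* = 0.195).

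The rest of the pathway was followed with lists of related genes. In microglia, 1 of the 7 tested further class I heavy chains was called, beside 1.52% of all tested genes. This was *H2-Q7*, which was at 8.06, 9.92 and 14.5 CPM in WT and at 23.4, 24.1 and 29.5 CPM in KIN (log2FC 1.26, SE 0.26, adjusted *p* = 0.0119), and which lost its call without WT replicate 1 (adjusted *p* = 0.161), KIN replicate 2 (0.0664) or KIN replicate 3 (0.0841) and as its most abundant transcript (0.136). *H2-Q6* had a log2FC of 1.29 (adjusted *p* = 0.0613), *H2-T22* 0.42, *H2-Q10* 0.40 and *H2-Q4* 0.20, none of them called. *H2-M3* and *H2-T24* passed the filter only through their KIN libraries and were not called. In astrocytes 6 were tested, and 1 was called in the opposite direction, beside 8.84% of all tested genes called. *H2-Q4* fell from 14.8, 6.83 and 11.0 CPM to 3.74, 6.65 and 5.75 CPM (log2FC -1.07, adjusted *p* = 0.0166), a call that was lost in DESeq2 (adjusted *p* = 0.135) and without WT replicates 1 (0.173) or 3 (0.0693) or KIN replicates 1 (0.158) or 3 (0.0595).

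Of the 13 genes of class II loading and endosomal processing, all were tested in microglia and 1 was called (1.52% of all tested genes). *H2-Oa* and *H2-Eb2* reached the filter only through their KIN libraries. *Ctsb*, the lysosomal protease cathepsin B, was at 58.8, 69.0 and 53.2 CPM in WT and at 131, 148 and 133 CPM in KIN (log2FC 1.19, adjusted *p* = 0.00589). Its call was lost without WT replicate 3 or KIN replicate 2, with an adjusted *p* of 0.0706 in both. *Ctsl*, cathepsin L, was at 16.7, 19.3 and 15.3 CPM in WT and at 32.6, 31.6 and 32.6 CPM in KIN and passed the adjusted *p* alone (log2FC 0.92, adjusted *p* = 0.0409, up to 0.240 with a library left out). In astrocytes none of the 5 tested genes of this list was called, and in neurons none of 4.

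Among the 11 genes of class I peptide supply, none was called in microglia, where 1.52% of all tested genes were called. The log2FC was positive for 10 of them, with a median of 0.52 against -0.006 over all genes tested. In astrocytes *Psme1*, a subunit of the proteasome activator PA28, was called of 8 tested genes, beside 8.84% of all tested genes, so that the count says nothing particular of the list. It was at 1.06, 2.28 and 4.39 CPM in WT and at 8.07, 7.67 and 9.20 CPM in KIN (log2FC 1.63, SE 0.36, adjusted *p* = 0.00136), a call that was lost as its most abundant transcript (adjusted *p* = 0.0838). The call held with any 1 library left out, at a log2FC of 1.28 to 2.26. *Calr*, the chaperone calreticulin, passed the adjusted *p* alone (log2FC 0.73, adjusted *p* = 0.0147).

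The regulators of MHC transcription and of the interferon response were mostly low and not called. None of the 17 tested in microglia passed, and 1 of the 16 tested in astrocytes did, a share no higher than the 8.84% of all tested genes. *Nfyc*, a subunit of the factor that binds the Y box, had only 1 WT library at the filter's 5 counts, so that it was tested through KIN. It was at 1.41, 1.30 and 3.14 CPM in WT astrocytes and at 6.34, 4.09 and 3.45 CPM in KIN (log2FC 1.24, adjusted *p* = 0.0488), and its call held in 1 of the 6 fits that left out a library, that without WT replicate 3, and not in DESeq2 (adjusted *p* = 0.281). The transactivators of the 2 classes are given here for their function, chosen after their values were seen. *Nlrc5*, of class I, had 6, 4 and 5 counts in WT microglia and 4, 14 and 16 in KIN (log2FC 1.07, adjusted *p* = 0.352), and *Ciita*, of class II, 4, 5 and 4 in WT and 9, 8 and 3 in KIN (log2FC 0.52, adjusted *p* = 0.832). *Ciita* was tested only through its KIN libraries.

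Of the costimulatory list, 4 genes were tested in microglia and none was called. In astrocytes 2 were tested and 1 was called, beside 8.84% of all tested genes. *Cd274*, the inhibitory ligand PD-L1, had 2 or more libraries at 5 counts only in WT and fell from 5.30, 5.20 and 5.33 CPM to 2.59, 1.02 and 1.15 CPM (log2FC -1.61, SE 0.43, adjusted *p* = 0.00792). The call was lost in DESeq2 (adjusted *p* = 0.0901) and without KIN replicate 3 (0.0654). *Gm36043*, a long non-coding RNA gene, overlaps *Cd274* on the opposite strand, and the counting did not use the strand. The paper reports it as the strongest decrease among antisense and processed pseudogene RNAs. The part of its reads in the *Cd274* counts was not tested. In neurons no gene of these 5 lists was called.

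The genes whose level followed that of *B2m* most closely over the 18 libraries, by Pearson's correlation of log2 CPM with a prior count of 2 among 13552 genes, were *Ftl1-ps1* (r = 0.965), *Ftl1* (0.948), *Rplp1* (0.933), *Btg2* (0.932) and *Inpp5d* (0.927). *Ftl1* encodes the ferritin light chain, and *Ftl1-ps1* is a pseudogene of it that shares its sequence. For *Cd74* they were *Nfkbid* (r = 0.971), *Grcc10* (0.960), *Ikzf1* (0.945), *Mcl1* (0.944) and *Laptm5* (0.944). All 10 of these were highest in microglia, so that the correlations carry the difference between fractions, and the libraries of a fraction share their isolation. Among the members, *H2-D1* (r = 0.934) had rank 11 and *H2-K1* (0.909) rank 30 for *Cd74*, while *H2-D1* (0.888) and *H2-K1* (0.882) had ranks 71 and 92 for *B2m*. Within the groups of fraction and genotype the correlation of *B2m* was -0.40 with *H2-D1* and 0.070 with *H2-K1*.

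The identity of single heavy chains is uncertain to some degree, because class I genes are close copies of each other. Of the distinct 50-base stretches in the GENCODE transcripts of *H2-K1*, 11.3% also occurred in transcripts of other genes, most often *H2-D1*, *H2-Q4* and *H2-Q10*. The share was 12.6% for *H2-D1*, 13.1% for *H2-T23* and 16.8% for *Tapbp*, the last almost wholly with the neighbouring *Zbtb22*. *B2m* and *H2-Ab1* had no such stretch. The counts of *B2m* stood under 1 transcript, and those of *H2-K1* were spread over 16, of which the most abundant held 15.8%. The counting did not use the strand. *H2-Aa* and *H2-Eb1* overlap each other on opposite strands, as do *Tap1* and *Psmb9*, and *B2m* and *Patl2*, and reads from the shared stretches cannot be told apart. The same holds for members that overlap non-coding genes on the opposite strand, among them *H2-D1* (*5430410E06Rik*), *H2-K1* (*Gm53999*) and *H2-T23* (*A930015D03Rik*).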

How the data were processed

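Per the labels and the study's methods, panRNA libraries with unique molecular identifiers were made from rRNA-depleted RNA of 3 brain cell fractions in 2 genotypes, 3 biological replicates each. The authors trimmed the reads with cutadapt 4.6, aligned them with Bowtie2 2.4.4 to mm39 RNA classes and counted them with HTSeq 2.0.2 without strand. The deposited table holds raw counts per transcript. Its 24 columns of the authors' means and 20 columns of their comparisons were not used. Counts were summed by gene name, and the 137 transcripts without a name (0.0222% of counts) were kept under their IDs.

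Genes with at least 5 counts in at least 2 libraries were tested with edgeR 4.0.16 (TMM, quasi-likelihood test, Benjamini-Hochberg adjustment, R 4.3.3) within each fraction, over all fractions with fraction as a covariate, and between fractions. The SE is the log2FC divided by the square root of the F statistic. The 10 most abundant transcripts held 76.0 to 85.7% of the counts of a library. The alternatives were DESeq2 1.42.0, its size factors, TMM without the 10 most abundant genes, no filter or a mean of at least 10 counts, the adjusted p alone, the most abundant transcript of each gene, all libraries in 1 fit, a replicate block and leaving out each library. The code was tested on simulated data.

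The genes, the related lists and the markers were chosen with earlier results of these data known. The text names every member, the other pathway genes that passed a test, and further genes chosen after their values were seen. Of these only *Nlrc5* and *Ciita* are marked as such where they are named. The single markers and the pathway genes that missed a call are not marked. The sources used here do not say which replicate numbers share a mouse, and the numbers were not used as pairs. The p-values measure the spread between these libraries.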

Additional observations from a re-analysis of the deposited data

How the results depend on the processing

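The count of called members in astrocytes (2) was 1 with DESeq2, 4 by the adjusted p alone, 1 with the most abundant transcript and 3 with all libraries in 1 fit, where *Cd74* was added, and 2 to 3 with a library left out. In microglia (2) it was 2 in all 9 other settings and 0 to 3 with a library left out. It was 0 without WT replicate 3 or KIN replicate 1. Over all fractions (2) it was 4 by the adjusted p alone, 1 with the most abundant transcript and 1 to 2 with a library number left out. In neurons and in the interaction it was 0 throughout. Between microglia and neurons (8) it was 7 to 9. Between astrocytes and neurons (6) it was 3 with the most abundant transcript and 5 to 8 with a library number left out. The cause was not tested. Over all genes, DESeq2 called 401 in astrocytes in place of 1039, and 48 in microglia (41 higher, 7 lower) in place of 165 (80 higher, 85 lower), and with a library left out the counts were 573 to 1527 and 35 to 453.

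A replicate block gave 2 called members in astrocytes, 2 in microglia, 0 in neurons, 2 over all fractions and 0 in the interaction, and between fractions 9 (microglia and astrocytes), 8 (microglia and neurons) and 6 (astrocytes and neurons). The correlation of same-numbered libraries was -0.08 to 0.06 between WT and KIN and 0.064 to 0.21 between astrocytes and microglia in WT. The sources do not say which numbers share a mouse, and not every pair was over 0.1, so the numbers were not taken as pairs.

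Some values changed sign, none of them called. With the most abundant transcript, *H2-T23* was -0.24 in astrocytes, *H2-Aa* -0.046 in microglia and -0.14 over all fractions, and *Tapbp* 0.060 between astrocytes and neurons. In neurons, *H2-Ab1* was -0.0091 with DESeq2, *Tap1* 0.0059, *Tapbp* 0.073 and *H2-Eb1* 0.042 without the filter, and *Tapbp* 0.077 and *H2-Eb1* 0.036 with all libraries in 1 fit. The last 2 settings moved the median of all neuronal genes to 0.26 and 0.23. With a library left out in neurons, *H2-T23* ran from -0.45 to 0.14, *B2m* from -0.17 to 1.01, *Tap1* from -0.45 to 0.17, *Tapbp* from -0.29 to 0.042, *H2-Ab1* from -0.58 to 0.50 and *H2-Eb1* from -0.80 to 0.36. In the interaction, *H2-K1* ran from -0.32 to 0.18, *H2-D1* from -0.079 to 0.43, *Tap1* from -1.28 to 0.13, *H2-Aa* from -0.75 to 1.70 and *H2-Eb1* from -0.68 to 0.75, and between astrocytes and neurons *Tapbp* ran from -0.39 to 0.0032.

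Depth limits the class II genes in astrocytes and neurons, *Tap1* in every fraction, and all neuronal comparisons, whose WT libraries were the shallowest.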
